A study of Rattus norvegicus with 44 samples.

Results

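The genes described here are 44 genes of the cell cycle and DNA replication, out of 14217 genes named on the arrays, measured in liver and kidney of rats given a coal-washing chemical. The list held 49 genes of DNA copying and mitosis. A gene counts as measured where a probe set is annotated to that gene alone, and it stands for its brightest such probe set in each organ. Cdc6, Rrm2, Ndc80, Ncapg and Tpx2 are not analysed here. Of the 44 measured genes, 30 have 1 probe set and 14 have several. The rats were male Harlan Sprague Dawley animals, 6 to 8 weeks old at assignment, dosed by gavage with crude 4-methylcyclohexanemethanol (MCHM, an alcohol mixture) dissolved in corn oil (5 mL/kg) on 5 days, and their organs were taken the day after the last dose. The 7 groups received corn oil alone (0 mg/kg, the vehicle), low doses of 0.1, 1 or 10 mg/kg, or higher doses of 100, 300 or 500 mg/kg. Liver gave 27 arrays, 4 per group but 3 in the 0.1 mg/kg group. Kidney gave 17 arrays, 3 in the vehicle group and in those of the 2 highest doses, and 2 in every other group. The labels call the arrays of a group biological replicates, and p-values measure the spread between these arrays, whose number limits the precision.

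A cell that divides first makes cyclin E, loads the MCM helicase on DNA with the help of Cdt1, and copies its genome behind the sliding clamp Pcna. It then builds up Cdk1 with cyclins A and B, attaches chromosomes to a spindle that the checkpoint kinases watch, and splits at the midzone. Most of these transcripts are made largely in cycling cells, under E2F factors at the start of DNA copying and under Foxm1 and the DREAM and B-Myb complexes before mitosis. Adult liver and kidney hold few cycling cells at rest, and both can re-enter the cycle after injury or after a growth stimulus.

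Promoters are shown to set out the letters that stand before genes of DNA copying and before genes of mitosis. Promoters of 36 of the 44 genes were found in the RefSeq table of rat assembly GRCr8, each a window of 250 bases before and 50 after the gene's start. These 3 sets of letters were searched on both strands: TTTGAA (the CHR, or cell cycle genes homology region), CCAAT, and TTTNNCGC (E2F-like). The CHR letters were in 19 of 36 promoters (52.8%) against 18.3% of 33469 promoters in the table. The CCAAT letters were in 24 (66.7%) against 37.5%, and the E2F-like letters in 11 (30.6%) against 4.92%. Of the 24 promoters of G2/M and mitosis genes, 17 held CHR letters, 18 held CCAAT and 4 held E2F-like letters. All 6 promoters of licensing and MCM genes in the table (Cdt1, Mcm2, Mcm3, Mcm5, Mcm6 and Mcm7) held E2F-like letters. CHR and CCAAT stood together in 15 of 36 (41.7%) against 7.41% of all. A match is a description of letters, not a site shown to be bound. The 5 promoters below show both kinds, each over 250 bases before the start and 30 after, 5′ to 3′, with matches to any of the 3 searches in capitals. They are Cdk1 at chr20:19265043-19265322 on the plus strand, and, on the minus strand, Ccnb2 at chr8:79981629-79981908, Top2a at chr10:84473064-84473343, Mcm2 at chr4:122918065-122918344 and Mcm6 at chr13:42404323-42404602.
Cdk1: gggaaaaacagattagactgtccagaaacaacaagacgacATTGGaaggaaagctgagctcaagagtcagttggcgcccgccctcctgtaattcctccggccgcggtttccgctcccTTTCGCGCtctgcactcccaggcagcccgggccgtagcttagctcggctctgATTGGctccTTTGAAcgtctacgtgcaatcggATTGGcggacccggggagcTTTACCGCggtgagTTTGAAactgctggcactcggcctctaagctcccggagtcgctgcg
Ccnb2: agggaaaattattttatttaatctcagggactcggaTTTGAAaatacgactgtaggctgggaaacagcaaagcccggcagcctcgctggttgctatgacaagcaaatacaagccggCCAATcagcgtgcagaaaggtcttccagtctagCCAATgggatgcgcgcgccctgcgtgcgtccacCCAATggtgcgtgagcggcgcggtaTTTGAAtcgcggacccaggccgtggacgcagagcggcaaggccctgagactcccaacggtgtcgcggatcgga
Top2a: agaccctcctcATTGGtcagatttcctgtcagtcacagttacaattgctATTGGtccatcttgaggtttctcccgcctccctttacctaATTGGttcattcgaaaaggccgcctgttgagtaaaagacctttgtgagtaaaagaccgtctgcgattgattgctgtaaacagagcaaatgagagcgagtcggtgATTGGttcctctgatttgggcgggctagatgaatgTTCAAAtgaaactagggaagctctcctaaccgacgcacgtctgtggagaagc
Mcm2: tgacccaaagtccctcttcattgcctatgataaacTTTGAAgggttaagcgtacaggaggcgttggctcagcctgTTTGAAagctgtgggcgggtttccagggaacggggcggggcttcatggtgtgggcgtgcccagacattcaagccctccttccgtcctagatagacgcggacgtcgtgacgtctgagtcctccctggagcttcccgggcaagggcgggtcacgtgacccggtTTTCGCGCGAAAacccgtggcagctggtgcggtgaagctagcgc
Mcm6: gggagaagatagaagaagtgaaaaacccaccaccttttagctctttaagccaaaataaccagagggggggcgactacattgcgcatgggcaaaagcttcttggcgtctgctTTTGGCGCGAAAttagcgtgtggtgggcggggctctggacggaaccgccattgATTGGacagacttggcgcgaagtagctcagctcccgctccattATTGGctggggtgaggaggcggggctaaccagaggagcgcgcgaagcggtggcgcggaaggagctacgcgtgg
Ccnb2 holds 3 CCAAT matches, with a CHR match upstream of them and another after them, near its start. Top2a holds 4 CCAAT matches and 1 CHR match, read from the other strand. Cdk1 holds all 3 kinds. In Mcm2 and Mcm6 the E2F-like matches on the plus and minus strands overlap. Mcm2 also holds CHR matches, the only 1 of the 6 licensing and MCM promoters to do so, and Mcm6 also holds CCAAT matches.

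Values are log2 expression as deposited, so a difference of 1 is a doubling, and array medians lay between 5.29 and 5.37. Over all probe sets any 2 liver arrays had a Pearson r between 0.989 and 0.994, and any 2 kidney arrays between 0.984 and 0.996. Marker lists bore out the organ labels: hepatocyte genes averaged 12.8 to 13.3 in liver, and proximal tubule genes 11.5 to 12.0 in kidney. Xist, the RNA of an inactivated second X chromosome, read 10.999 in liver vehicle replicate 2 against 2.29 to 3.04 in the other 26 liver arrays. In kidney vehicle replicate 2 it read 9.33 against 2.21 to 2.59 in the other 16. The Y-linked gene Eif2s3y read 9.26 and 10.02 in these arrays, beside 8.94 to 9.49 and 9.35 to 9.94 in the others, so their Xist level goes against a male label and their Y-linked RNA does not. Results are therefore also given without them. Hepatocyte genes averaged 7.76 in kidney 1 mg/kg replicate 1 against 5.57 to 6.09 in other kidney arrays.

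The cell cycle genes varied more between rats of 1 dose than most transcripts. In liver the median SD within dose groups was 0.31 log2 units over the 44 genes and 0.18 over all probe sets, and 40 of 44 genes lay above the latter. In kidney these SDs were 0.27 and 0.16, and 39 of 44 lay above. Cdk1, the kinase that starts mitosis, and Ccna2, cyclin A2, had the widest span in liver, 2.56 log2 units or 5.91-fold between the lowest and the highest array. Pcna had the narrowest, 0.40 log2 units. In bulk tissue, fewer cycling cells and less RNA per cell cannot be told apart. The deposited values compress differences of dim probe sets, and 21 of the 44 genes in liver and 13 in kidney lay below the median level of all probe sets.

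The mean of the 44 genes shows the spread most directly. The 4 liver vehicle arrays had means of 5.09, 5.65, 5.65 and 5.89. Replicate 1 was the lowest of all 27 liver arrays, with 4 of 44 genes above their liver median. Replicate 4 was the second highest, with 40 of 44 above. The 4 arrays at 500 mg/kg had means of 5.78, 5.47, 5.55 and 5.33, all within the span of the vehicle. The highest liver array was 10 mg/kg replicate 2, at 5.91 with 41 genes above. The 3 kidney vehicle arrays had means of 5.71, 6.39 and 6.29, with 3, 40 and 41 genes above their kidney median. Replicate 2 was the highest of the 17 kidney arrays and held the top value of 24 of the 44 genes. The kidney arrays at 500 mg/kg had means of 6.10, 5.70 and 5.85, the second of them the lowest of all kidney arrays. In both organs the vehicle arrays thus spanned most of the range that all arrays covered.

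**Figure D1:**
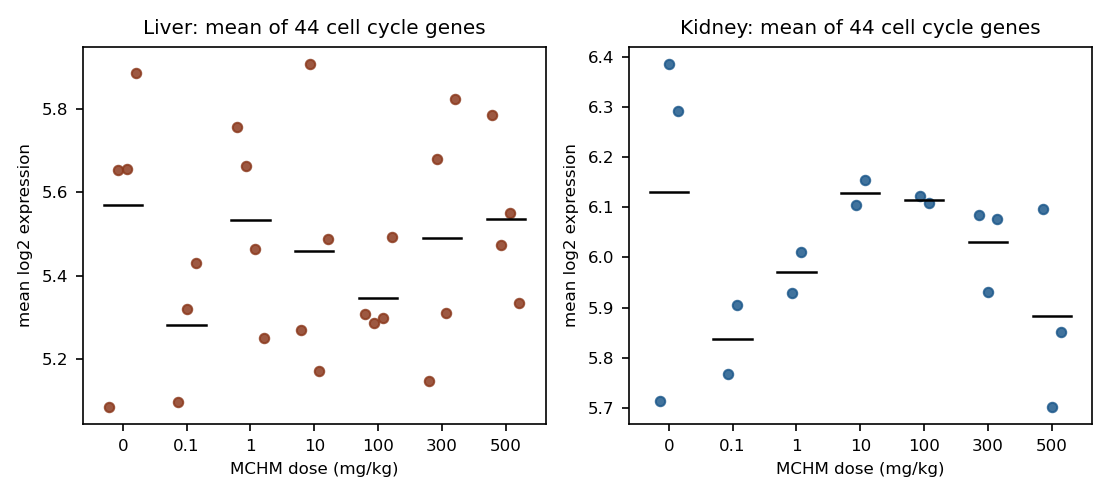
Mean log2 expression of the 44 cell cycle genes (vertical axis) in each array at each MCHM dose in mg/kg (horizontal axis, equally spaced), liver at left and kidney at right. Points are arrays and bars are group means. The 4 liver vehicle arrays run from 5.09 to 5.89 and the 3 kidney vehicle arrays from 5.71 to 6.39.

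**Figure D2:**
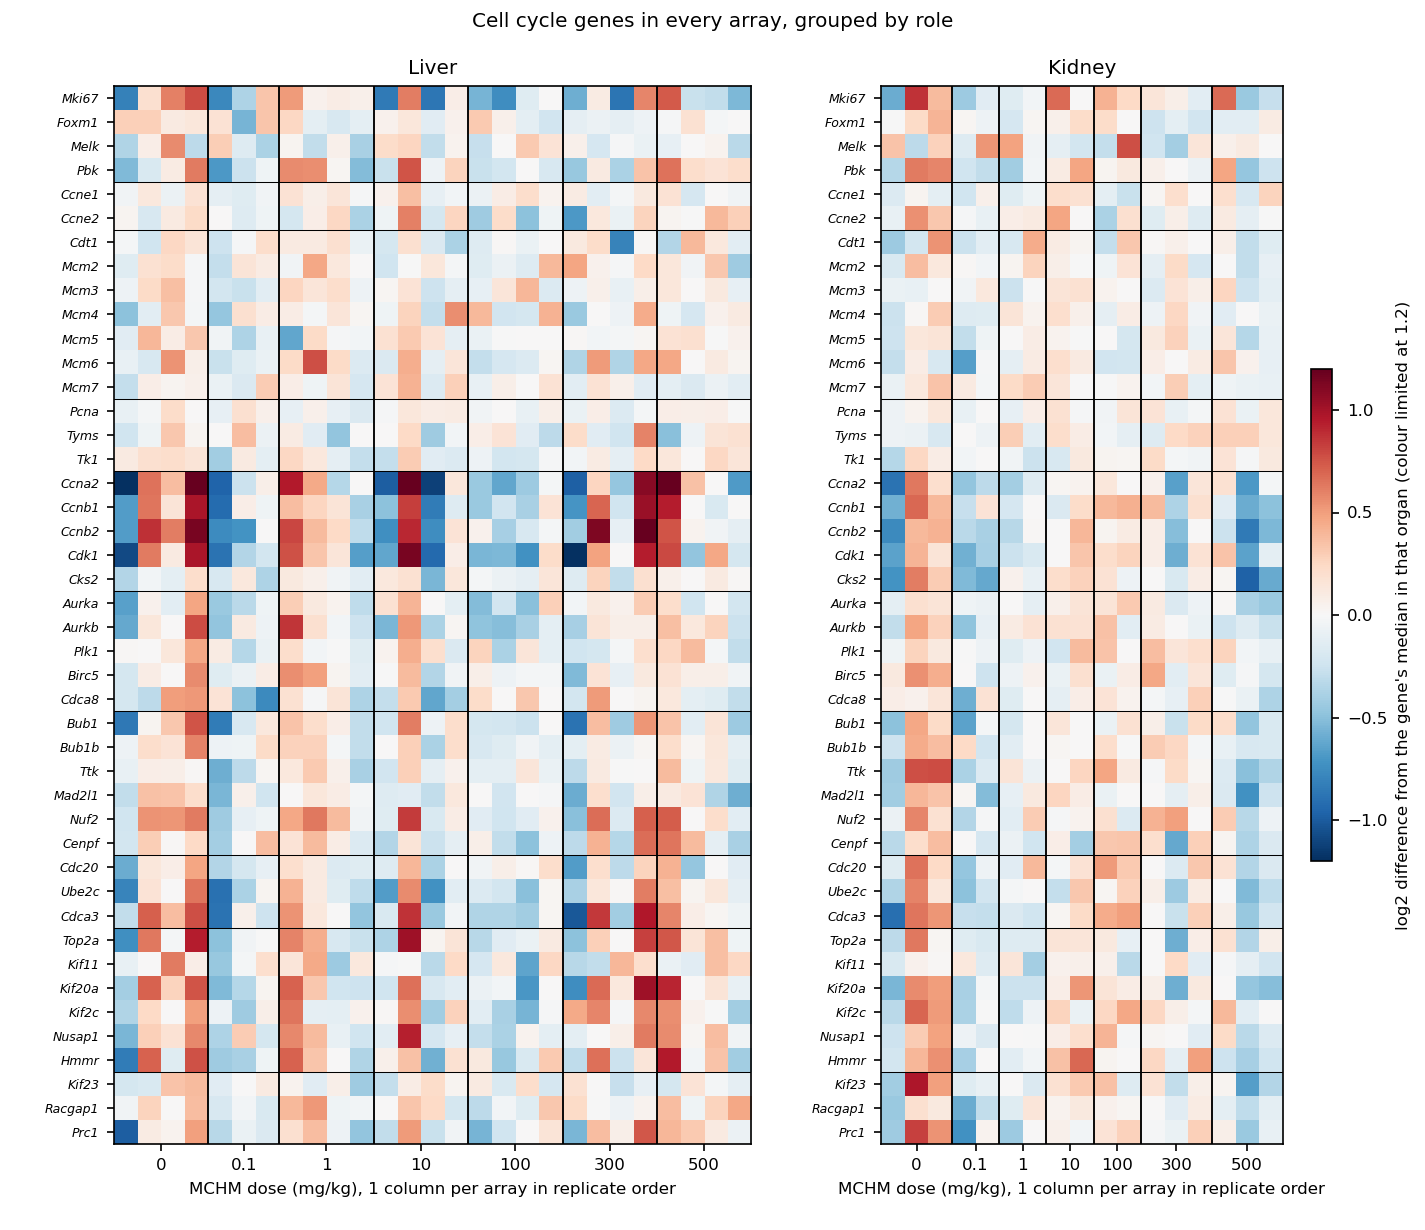
Each of the 44 genes (rows, in order of role) in each array (columns, in order of dose and replicate), coloured by its log2 value minus the gene's median over the organ's arrays. Liver vehicle replicate 1 is low and replicate 4 high in most rows, and kidney vehicle replicate 1 is low where replicates 2 and 3 are high.

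Cdk1 and its cyclin Ccnb1 varied together across arrays in both organs, and the other partner genes did so in 1 organ or in neither. Deviations from the dose-group mean were correlated for 6 pairs in each organ, 12 correlations in all, with array values permuted within dose groups 100000 times. The pairs were chosen after values of single arrays were seen, and p-values were adjusted over the 12. Cdk1 and Ccnb1 gave Pearson r = 0.92 and Spearman rho = 0.90 over 27 liver arrays (permutation p = 1e-05, the smallest that can be given, adjusted 0.00012 for each). Without the 2 arrays farthest from the median of Cdk1, r was 0.89. In 17 kidney arrays the same pair gave r = 0.91 and rho = 0.94 (permutation p = 0.00153 and 0.00099, adjusted 0.00459 and 0.00297), and r = 0.91 without 2 arrays. Aurkb and Birc5, kinase and partner in the passenger complex, gave r = 0.82 and rho = 0.72 in liver (permutation p = 5e-05 and 0.00043, adjusted 0.0003 and 0.00172), and r = 0.76 without 2 arrays. The checkpoint genes Bub1 and Bub1b gave r = 0.73 and rho = 0.77 in liver (permutation p = 9e-05 and 8e-05, adjusted 0.00036 and 0.00048), and r = 0.72 without 2 arrays. In kidney those pairs gave r = 0.30 and 0.27 (permutation p = 0.392 and 0.577, adjusted 0.471 and 0.629). Kif23 and Racgap1, which together form centralspindlin of the dividing midzone, gave r = 0.01 in liver (permutation p = 0.955) and r = 0.76 with rho = 0.58 in kidney (permutation p = 0.0166 and 0.0479, adjusted 0.0398 and 0.115). The kidney value rested on 2 arrays, since r was 0.42 without them. Different probe sets stand for Ccnb1, Kif23 and Racgap1 in the 2 organs, so liver and kidney values of their pairs do not compare the same probes. In the liver vehicle arrays the other probe set of Racgap1 read 3.82, 5.03, 4.63 and 5.67. The one used there read 4.61, 4.92, 4.65 and 5.02. Correlations with the other probe sets were not tested. The helicase pair Mcm2 and Mcm6 gave r = 0.33 and 0.32, and Cdt1 with Mcm2 gave 0.29 and 0.48, in liver and kidney, none past an adjusted p of 0.05. The differences between pairs and between organs were not tested.

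In liver no cell cycle gene passed the test for a change at any dose. At adjusted p under 0.05 (limma, Benjamini-Hochberg over 31042 probe sets), 0 of 44 genes were called at each of the 6 doses. The share of all probe sets called was 0% at each of the 4 lower doses, 0.122% at 300 mg/kg and 0.177% at 500 mg/kg. The median difference from vehicle over the 44 genes was -0.25, 0.00, -0.08, -0.20, -0.09 and -0.05 from the lowest dose to the highest, while the median over all probe sets was 0.00 at each. All comparisons within an organ share its vehicle arrays, so these medians are not independent of each other. The number of genes below vehicle was 40, 22, 30, 37, 33 and 29 of 44 in the same order, with no steady order by dose. At an unadjusted p under 0.05 in limma, 6, 1, 0, 2, 1 and 0 genes were lower than vehicle and 0 were higher. The 6 at 0.1 mg/kg (13.6%, against 2.21% of all probe sets) were Mcm3, Mcm5, Ccnb2, Tk1, Mad2l1 and Cdca8, with differences from -0.98 (Ccnb2) to -0.31 (Tk1). The 2 at 100 mg/kg (4.55%) stand beside 2.68% of all probe sets. A slope over the dose levels called 0 of 44 genes, against 0.245% of all probe sets, and 0 had an unadjusted p under 0.05. The mean of 300 and 500 mg/kg minus the mean of 0.1, 1 and 10 mg/kg, which uses no vehicle array, also called 0 of 44, against 0.554% of all probe sets. Its median was 0.06, with 29 genes above, and 0 had an unadjusted p under 0.05.

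Growth markers and regulators came first in liver. Mki67, the antigen of cycling nuclei, read 3.79, 4.79, 5.20 and 5.38 in the vehicle arrays and 5.33, 4.33, 4.30 and 4.06 at 500 mg/kg. The 19 arrays between these doses ran from 3.72 to 5.21, with a median of 4.60. The groups overlapped throughout, and the difference at 500 mg/kg was -0.28 (SE 0.36, limma adjusted p = 0.879). Foxm1, the forkhead factor of G2/M genes, read 5.61, 5.60, 5.42 and 5.46 in vehicle and 5.21, 5.25, 5.21 and 5.26 at 300 mg/kg. These 2 groups did not overlap, and the difference was -0.29 (SE 0.14, limma adjusted p = 0.501), while the other probe set of Foxm1 gave 0.02. At 500 mg/kg Foxm1 read 5.30, 5.50, 5.30 and 5.32, which overlaps vehicle.

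The genes of the start of DNA copying lay close to vehicle in liver at 500 mg/kg. At 0.1 mg/kg Mcm3, Mcm5 and Tk1 were among the genes lower at an unadjusted p under 0.05 in limma. The 7 licensing and MCM genes had a median difference of -0.06 at 500 mg/kg, within -0.10 to 0.07, and the 3 genes of copying and nucleotide supply one of -0.03. Cyclin E1, Ccne1, read 5.36, 5.52, 5.33 and 5.58 in vehicle and 5.57, 5.20, 5.40 and 5.36 at 500 mg/kg. Cyclin E2, Ccne2, read 4.34, 4.10, 4.41 and 4.53 against 4.34, 4.30, 4.69 and 4.59. Neither cyclin, which with Cdk2 fires DNA copying, separated the groups. Mcm2, a helicase subunit, read 5.83, 6.16, 6.19 and 5.96 in vehicle and 6.11, 5.93, 6.30 and 5.55 at 500 mg/kg. Mcm6, another subunit, read 5.40, 5.30, 6.04 and 5.57 against 5.96, 5.49, 5.61 and 5.53. Cdt1, the helicase loader, read 4.01, 3.79, 4.28 and 4.19 against 3.68, 4.41, 4.16 and 3.91. All 3 overlapped, with differences of -0.06 (SE 0.16), 0.07 (SE 0.20) and -0.03 (SE 0.18). Pcna, the sliding clamp, read 8.64, 8.71, 8.95 and 8.74 in vehicle and 8.81, 8.80, 8.81 and 8.73 at 500 mg/kg, a difference of 0.03 (SE 0.08). Tk1, thymidine kinase of cycling cells, read 7.31, 7.40, 7.42 and 7.36 in vehicle and 7.15, 6.99, 6.999 and 7.20 at 100 mg/kg. Those groups did not overlap (difference -0.29, SE 0.12, limma adjusted p = 0.767), but Tk1 was back at 7.34, 7.21, 7.46 and 7.36 at 500 mg/kg.

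The mitotic genes had the widest values in liver. The 5 G2/M cyclin and kinase genes had a median difference of -0.64 at 0.1 mg/kg, with 5 of 5 below, of -0.56 at 100 mg/kg, with 4 of 5 below, and of -0.03 at 500 mg/kg. Cdk1 read 4.97, 6.67, 6.16 and 7.03 in vehicle and 6.85, 5.58, 6.52 and 5.84 at 500 mg/kg, with 4.63 to 7.19 and a median of 5.83 in the 19 arrays between. Ccnb1 read 4.47, 5.78, 5.29 and 6.12 in vehicle and 6.09, 5.14, 4.95 and 5.15 at 500 mg/kg. For both genes the vehicle group alone spanned nearly the range of all dosed arrays, and the differences at 500 mg/kg were -0.01 (SE 0.47) and -0.09 (SE 0.38). Top2a, the topoisomerase that untangles sister chromosomes, read 4.41, 5.78, 5.12 and 6.09 in vehicle and 5.89, 5.30, 5.51 and 5.10 at 500 mg/kg (difference 0.10, SE 0.31). Aurkb, the passenger kinase, read 3.67, 4.42, 4.28 and 5.06 against 4.64, 4.41, 4.55 and 4.02. Its partner Birc5 (survivin) read 5.32, 5.61, 5.53 and 6.10 against 5.71, 5.60, 5.60 and 5.49. Cdc20, which activates the ubiquitin ligase of mitotic exit, read 6.33, 7.06, 7.01 and 7.40 in vehicle and 7.34, 6.47, 6.93 and 6.79 at 500 mg/kg. Each of these genes was lowest in vehicle replicate 1 and highest in vehicle replicate 4 among the vehicle arrays, and each overlapped between groups. Bub1b, a checkpoint kinase-like protein, read 3.66, 3.93, 3.88 and 4.32 in vehicle and 3.53, 3.57, 3.67 and 3.60 at 100 mg/kg. Only 1 of those 100 mg/kg arrays reached into the vehicle span, and the difference was -0.35 (SE 0.14, limma adjusted p = 0.749). Mad2l1, a checkpoint protein, had the smallest p of the 44 genes at 500 mg/kg, with a difference of -0.32 (limma adjusted p = 0.622). The liver medians moved with single vehicle arrays: without replicate 1 the median at 500 mg/kg was -0.16, and without replicate 4 it was 0.06, with 0 genes called either way. Without replicate 2, the array high in Xist, it was -0.02, and 0 genes were called at any liver dose.

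**Figure D3:**
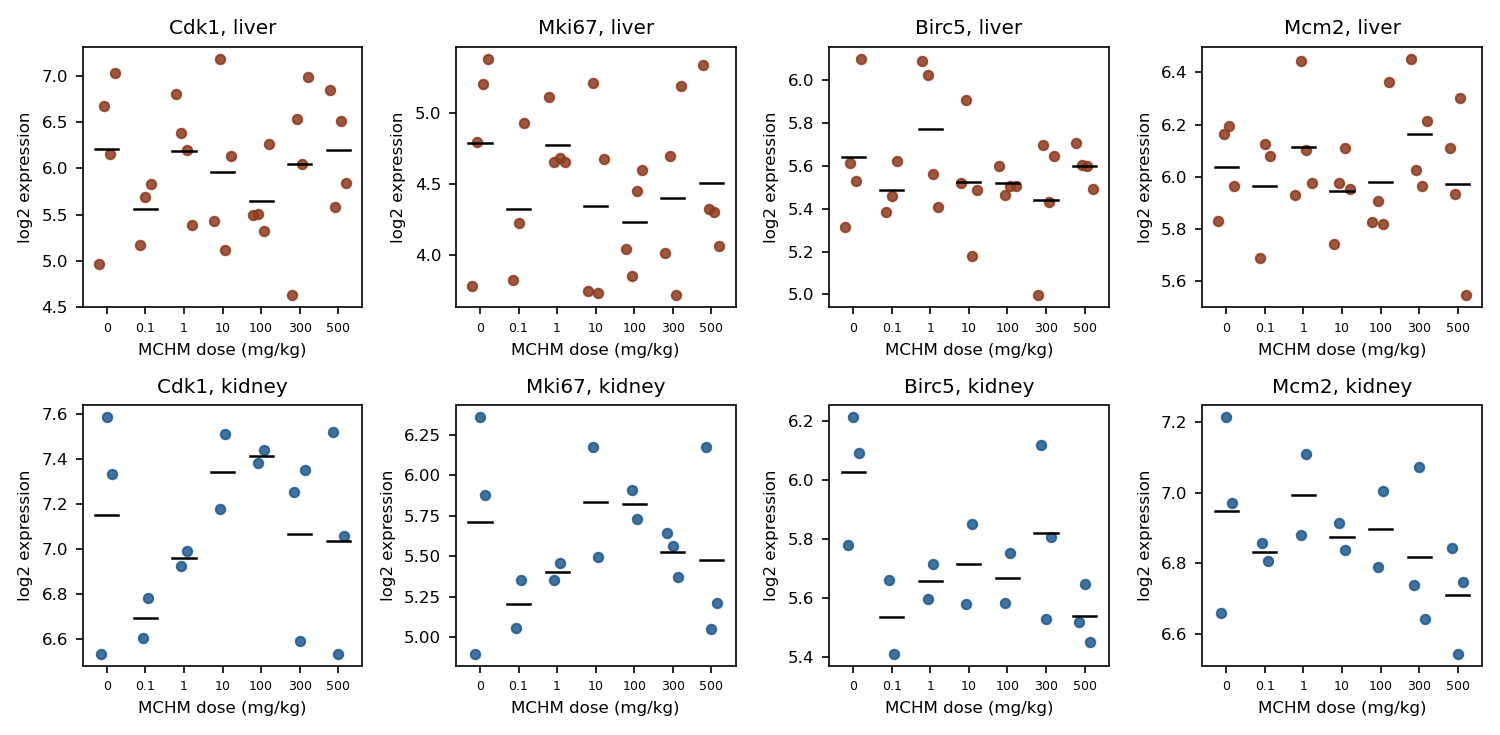
Log2 expression of Cdk1, Mki67, Birc5 and Mcm2 in each array by MCHM dose in mg/kg, liver and kidney. Points are arrays and bars are group means. Liver Cdk1 runs from 4.97 to 7.03 among vehicle arrays alone, and kidney Birc5 at 500 mg/kg (5.45 to 5.64) lies below its vehicle arrays (5.78 to 6.21).

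In kidney, too, no cell cycle gene passed the adjusted threshold at any dose. As in liver, more of the 44 genes lay below vehicle than above it at most kidney doses. The medians were -0.31, -0.17, 0.00, -0.01, -0.11 and -0.25 from 0.1 to 500 mg/kg, with 40, 35, 21, 23, 32 and 38 of 44 genes below vehicle. The medians over all probe sets lay from -0.01 to 0.01. In limma 0 of 44 genes and 0% of all probe sets were called at each of the 6 doses. At an unadjusted p under 0.05, 6, 2, 0, 1, 1 and 7 genes were lower. The 7 at 500 mg/kg are 15.9% of the genes, against 5.13% of all probe sets, and the 6 at 0.1 mg/kg (Birc5, Racgap1, Ttk, Aurkb, Cdc20 and Prc1) are 13.6% against 2.39%. The slope over dose levels called 0 genes against 0% of all probe sets, with Tyms at 0.05 per level (limma adjusted p = 0.654) and Foxm1 at -0.04 (adjusted p = 0.695). High minus low doses called 0 of 44 against 0% of all probe sets, with a median of -0.01 and 0 genes at an unadjusted p under 0.05.

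**Figure D4:**
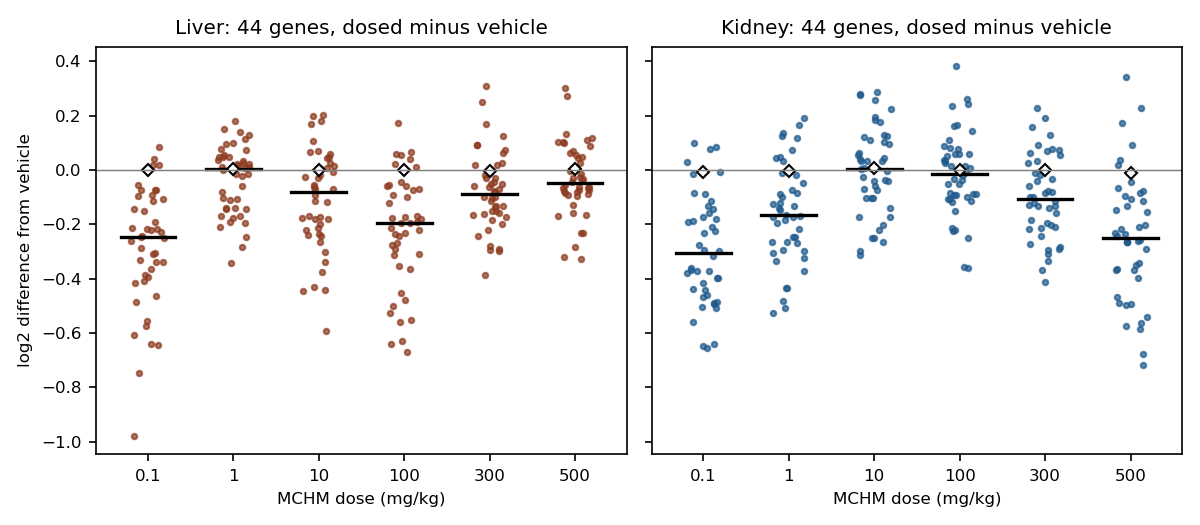
Difference from vehicle in log2 units (vertical axis) of each of the 44 genes (points) at each dose in mg/kg, liver and kidney, with the median of the 44 genes as a line and the median of all 31042 probe sets as a diamond. The gene medians run from -0.25 to 0.00 in liver and from -0.31 to 0.00 in kidney, with no steady order by dose.

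By role, all 28 kidney genes from G2/M to cytokinesis lay below vehicle at 500 mg/kg, and genes of DNA copying lay on both sides. Of the same 28 genes 27 lay below vehicle at both 0.1 and 1 mg/kg in kidney, and 14, 14 and 24 at 10, 100 and 300 mg/kg. In liver 28, 14, 21, 25, 21 and 18 lay below from the lowest dose to the highest. In high minus low doses, which uses no vehicle array, 15 of the 28 lay below 0 in kidney and 7 in liver. At 500 mg/kg in kidney the median was -0.56 for the 5 G2/M cyclin and kinase genes, -0.47 for the 3 cytokinesis genes and -0.36 for the 3 mitotic exit genes. It was -0.35 for the 5 mitotic kinase and passenger genes, -0.30 for the 6 checkpoint and kinetochore genes and -0.24 for the 6 spindle and chromosome genes. The 7 licensing and MCM genes had a median of -0.10, with 5 of 7 below, and the 3 genes of copying and nucleotide supply had one of 0.09, with 0 of 3 below. Whether the roles differ was not tested. Birc5 read 5.78, 6.21 and 6.09 in vehicle and 5.52, 5.64 and 5.45 at 500 mg/kg. The groups did not overlap, and the difference was -0.49 (SE 0.15, limma adjusted p = 0.364). Ttk, the kinase at the head of the spindle checkpoint, read 3.68, 4.89 and 4.89 in vehicle and 3.95, 3.61 and 3.75 at 500 mg/kg. Vehicle replicate 1 lay with the dosed arrays, and the difference was -0.72 (SE 0.25, adjusted p = 0.379). Hmmr, a spindle-binding hyaluronan receptor, read 4.87, 5.48 and 5.64 against 4.83, 4.69 and 4.85. These groups did not overlap, although the nearest arrays differed by little (difference -0.54, SE 0.19, adjusted p = 0.392). Kif23 read 5.38, 6.76 and 6.28 against 5.82, 5.13 and 5.44, and Mad2l1 read 5.42, 6.24 and 6.18 against 5.66, 5.11 and 5.59. In both, vehicle replicate 1 lay among the dosed arrays. The count of 28 holds for the probe set used for each gene, since another probe set gave 0.14 for Ttk, 0.41 for Kif11 and -0.0011 for Kif23, beside -0.72, -0.08 and -0.68. Aurka, the spindle pole kinase, read 5.26, 5.57 and 5.54 in vehicle and 5.40, 4.99 and 4.94 at 500 mg/kg (difference -0.35, SE 0.13, adjusted p = 0.398).

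Foxm1 lay below vehicle at 300 mg/kg in kidney and Tyms above it at 500 mg/kg, and neither was called. The share of all probe sets without overlap is given for kidney at 500 mg/kg only, so non-overlap elsewhere has no background beside it. Foxm1 read 5.52, 5.75 and 5.93 in vehicle and 5.27, 5.41 and 5.29 at 300 mg/kg. Those groups did not overlap (difference -0.41, SE 0.12, limma adjusted p = 0.999), and the other probe set gave -0.02. At 500 mg/kg Foxm1 read 5.40, 5.40 and 5.63 (difference -0.26, SE 0.12, adjusted p = 0.473). Tyms, thymidylate synthase, which makes the DNA building block dTMP, read 5.46, 5.45 and 5.33 in vehicle and 5.81, 5.81 and 5.65 at 500 mg/kg. It was the only one of the 44 genes higher at an unadjusted p under 0.05 in that comparison, and the groups did not overlap (difference 0.34, SE 0.13, adjusted p = 0.398). Of the 44 genes at 500 mg/kg, 3 lay wholly below the vehicle arrays (Birc5, Hmmr and the passenger protein Cdca8), against 8.81% of all probe sets, and 1 wholly above (Tyms), against 7%.

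Other kidney genes overlapped between vehicle and 500 mg/kg. Mki67 read 4.90, 6.36 and 5.88 in vehicle and 6.18, 5.05 and 5.21 at 500 mg/kg, and Cdk1 read 6.53, 7.59 and 7.33 against 7.52, 6.53 and 7.06. Ccnb1 read 4.88, 6.15 and 5.85 against 5.32, 4.87 and 4.97 (difference -0.57, SE 0.27, adjusted p = 0.506). In these genes vehicle replicate 1 was the low one of its group and 500 mg/kg replicate 1 the high one. Top2a read 5.54, 6.50 and 5.89 against 6.04, 5.50 and 5.93, and Cdc20 read 6.70, 7.50 and 7.09 against 7.02, 6.50 and 6.68. Aurkb read 4.22, 4.99 and 4.79 against 4.27, 4.36 and 4.25, and Bub1b read 3.78, 4.48 and 4.40 against 3.94, 3.84 and 3.85. The last 2 genes had 500 mg/kg arrays close to each other, beside more widely spread vehicle arrays. Among the genes of DNA copying, Ccne1 read 4.98, 5.17 and 5.02 against 5.34, 4.95 and 5.41, and Ccne2 read 4.91, 5.55 and 5.33 against 5.10, 4.89 and 5.00. Mcm2 read 6.66, 7.21 and 6.97 against 6.84, 6.54 and 6.75, and Mcm6 read 5.89, 6.26 and 5.99 against 6.51, 6.23 and 6.08. Cdt1 read 4.17, 4.38 and 5.14 against 4.67, 4.31 and 4.46, and Pcna read 9.35, 9.45 and 9.54 against 9.58, 9.33 and 9.54. None of these 6 separated the groups.

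The kidney result depended on which vehicle arrays were used. Without vehicle replicate 1, the array low in most of these genes, 8 of 44 genes were called lower at 500 mg/kg, against 1.98% of all probe sets. They were Ttk (-1.12, limma adjusted p = 0.00144), Kif23 (-1.06), Cks2 (-0.98), Ccnb2 (-0.95), Ccnb1 (-0.95), Cdca3 (-0.79), Hmmr (-0.77) and Mad2l1 (-0.75), and the median of the 44 genes was -0.46. Cdca3 and Ttk were also called lower at 0.1 mg/kg in that fit, against 1.03% of all probe sets. Leaving out the vehicle array low in these genes raises their vehicle mean, so lower calls follow in part from that choice. The fit kept only vehicle replicates 2 and 3, of which replicate 2 is high in Xist. Without vehicle replicate 2, the array high in Xist, 0 genes were called at any dose and the median at 500 mg/kg was -0.16. Without vehicle replicate 3 it was -0.15. At 0.1, 1, 10, 100 and 300 mg/kg, the medians without replicate 2 were -0.18, -0.01, 0.12, 0.08 and 0.02. Adipocyte genes, a list added after the data were seen, also split the kidney arrays. They averaged 4.88, 6.01 and 7.17 in vehicle and 5.26, 7.89 and 4.94 at 500 mg/kg. They read 8.94 in 1 mg/kg replicate 2 and 7.62 in 300 mg/kg replicate 2, against 4.70 to 5.53 in the remaining kidney arrays. Without 500 mg/kg replicate 2, the array highest in adipocyte genes and lowest in cell cycle genes of its group, the median at 500 mg/kg was -0.16. The part of fat in the other kidney values was not tested.

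The liver and kidney changes were then set against each other in 1 fit of all arrays. One probe set per gene, the brightest over all arrays, was used for both organs in this fit. For Kif23 it is not the one used in the kidney dose comparisons, so the kidney change given above for Kif23 was not tested between organs. For Ccnb1, Racgap1 and Kif11 it is not the one used in the liver dose comparisons. At 300 mg/kg 0 of 44 genes differed between organs, against 0% of all probe sets, with a median difference of 0.00 and 0 genes at an unadjusted p under 0.05. At 500 mg/kg 0 of 44 differed, against 0.029% of all probe sets, with a median of 0.16 (0.017 to 0.41 with 1 array left out) and 33 genes above 0. Ttk (0.78, SE 0.27, limma adjusted p = 0.259) and Cks2 (0.70, SE 0.30, adjusted p = 0.385) were the 2 with an unadjusted p under 0.05. Without kidney vehicle replicate 1, the lowest kidney vehicle array for both, these 2 genes were called, at 1.18 and 1.09, against 2.4% of all probe sets. So no dose change of a cell cycle gene was shown to differ between the organs with all arrays in the fit. The labels do not say which liver and kidney arrays come from 1 rat.

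Between the vehicle organs some of these genes did differ, though a smaller share than of all probe sets. Of 44 genes 21 (47.7%) were called, against 61.4% of all probe sets, 16 lower in liver (36.4% against 28.5% of all probe sets) and 5 higher (11.4% against 32.9%). The median difference, liver minus kidney, was -0.40 (-0.64 to -0.24 with 1 array left out), with 36 of 44 genes below 0, while the median of all probe sets was 0.11. One probe set per gene, the brightest over all arrays, was used for both organs here. Kif11, the motor that pushes spindle poles apart, read 4.29, 4.73, 4.91 and 4.60 in liver and 8.19, 8.42 and 8.39 in kidney. This is 13.0-fold lower in liver (log2 difference -3.70, SE 0.24, limma adjusted p = 7.17e-16). Melk, a kinase found in dividing and progenitor cells, read 3.48, 3.91, 4.40 and 3.52 in liver and 7.64, 6.99 and 7.58 in kidney. It was 11.9-fold lower (-3.58, SE 0.22, adjusted p = 1.3e-16). Among the kidney vehicle arrays Melk was highest in replicate 1 and lowest in replicate 2. The mean of the 44 genes ran the other way in these arrays (5.71 and 6.39). The liver values of both genes lie below the median level of all probe sets, where differences are compressed and background calls were not made, so these folds are rough. Next in size with the probe sets used was Pbk, a mitotic kinase, at -1.48, which read 4.25, 4.60, 4.88 and 5.40 in liver and 5.64, 6.60 and 6.56 in kidney. A further probe set of Kif11 gave -1.09, so the direction held and the size did not.

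Licensing, copying and cytokinesis genes made up most of the rest that were lower in liver. Mcm2 read 5.83, 6.16, 6.19 and 5.96 in liver and 6.66, 7.21 and 6.97 in kidney (-0.91, SE 0.16, limma adjusted p = 9e-06), and Pcna was at 8.64 to 8.95 in liver and 9.35 to 9.54 in kidney (-0.68, SE 0.09, adjusted p = 2.85e-08). Neither gene overlapped between the organs. Mcm4, Cdt1, Mcm6 and Mcm7 lay between -0.50 and -0.46, and of these only Mcm7 did not overlap. Ccne2 was lower by the test (-0.92) and Ccne1 higher (0.39), so the pair of E cyclins went opposite ways, each with groups apart. Prc1, which bundles the spindle midzone, and Racgap1 were both at -1.22, and Hmmr, Ttk, Mki67 and Mad2l1 at -1.12, -0.92, -0.92 and -0.55. Higher in liver beside Ccne1 were Kif23 (0.91), Cks2 (0.49), Tk1 (0.49) and Plk1 (0.40). Cks2 is a small Cdk1-binding protein and Plk1 a kinase of mitotic entry.

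Several of these organ differences rest on the choice of probe set. Of the 21 called genes 8 have further probe sets, and in 6 of the 8 some further probe set differed in the other direction. Kif23 was 0.91 with the probe set used and -1.30 with its other one, which is the brighter in kidney and stands for it in the kidney dose comparisons. Hmmr was -1.12 and 0.18, Ttk -0.92 and 0.44, and Ccne2 -0.92 and 0.01. Tk1 was 0.49, against -0.28 and -0.01. Mad2l1, at -0.55 with the probe set used, also had a further probe set in the other direction. Racgap1 was -1.22 and -0.04, with the same sign. In all alternatives that tested them, Ccne1, Kif11, Mcm2, Melk, Pbk, Pcna, Prc1 and Racgap1 stayed past the threshold. Ccne2 did so too, in spite of its other probe set. The filter on dim probe sets removed Ccne1, Ccne2, Melk, Pbk and Racgap1, so that setting did not test them. Without replicate 2, the array high in Xist, in either organ, a setting chosen after the data were seen, 16 genes were called. Whether both organs were normalized together is not given in the sources used here.

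**Figure D5:**
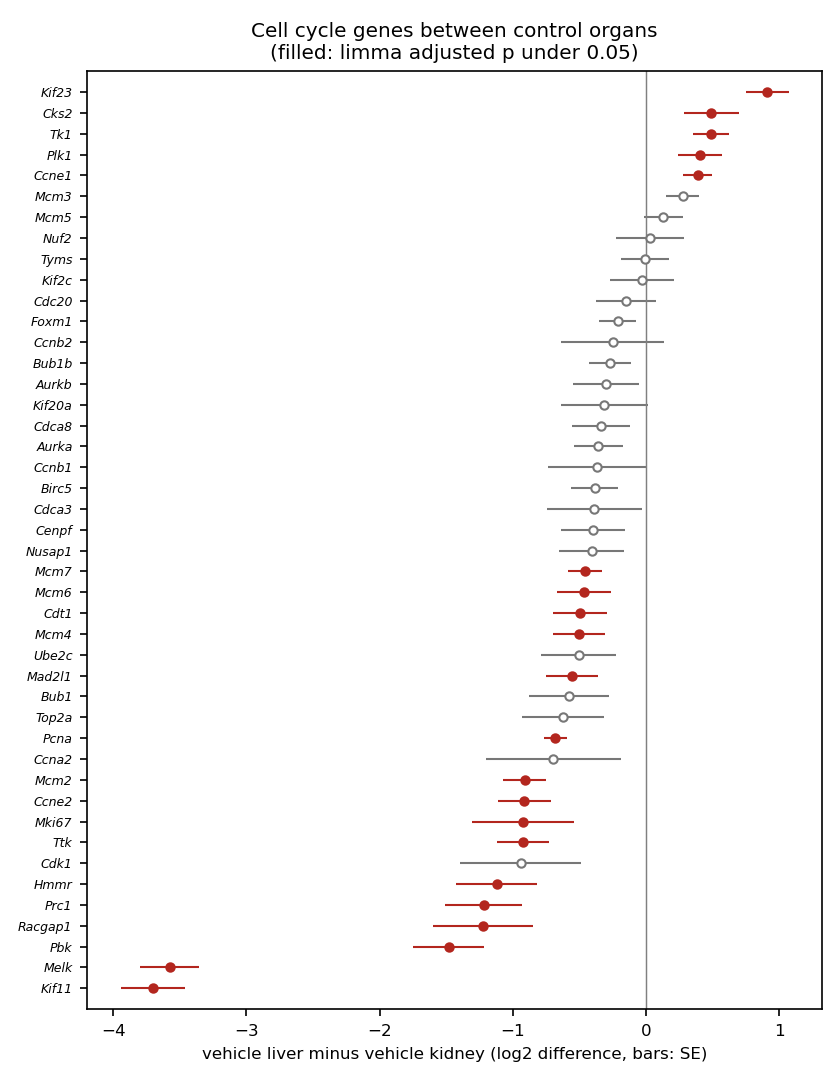
Liver minus kidney difference in log2 units between vehicle arrays (horizontal axis) for each of the 44 genes (rows), with the standard error from limma as bars and filled points where the adjusted p is under 0.05. Kif11 and Melk stand at -3.70 and -3.58, and 36 of the 44 genes lie below 0.

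Other genes of the same pathways gave 0 calls in the dose comparisons as well. At 500 mg/kg in liver the medians were -0.05 for 31 other replication genes, -0.06 for 36 other mitosis genes and 0.02 for 35 G1 regulators and inhibitors. In kidney at 500 mg/kg they were 0.00, -0.14 and -0.06, and 4 of the 36 mitosis genes were lower at an unadjusted p under 0.05, against 5.13% of all probe sets. Kif18a, a motor that dampens chromosome movement, was at -0.42 there (SE 0.13, limma adjusted p = 0.364). Ccnd1, cyclin D1, which carries growth signals into the cycle, was at -0.74 in liver at 500 mg/kg (SE 0.25, adjusted p = 0.317). The kinase partner of D cyclins Cdk6 was at -0.29 (adjusted p = 0.423). Cdkn1a, the p21 inhibitor that p53 induces, was at 0.12 in liver (SE 0.15, adjusted p = 0.877) and -0.37 in kidney (SE 0.24, adjusted p = 0.639) at 500 mg/kg.

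Markers of other cell types were read beside these values. In liver at 500 mg/kg the lymphocyte list had a median of -0.14 and the macrophage list one of -0.18, and the stellate cell and fibroblast list had one of -0.27. Jchain, the joining chain of antibodies in plasma cells, was the only called gene among the marker lists, at -0.81 in liver at 500 mg/kg (limma adjusted p = 0.0472). In kidney at 500 mg/kg the macrophage list had a median of -0.30, with 4 of 8 genes lower at an unadjusted p under 0.05 (against 5.13% of all probe sets), and the endothelium list had one of -0.25. The part of these lists in the cell cycle values was not tested.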

How the data were processed

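RNA from liver and kidney was hybridised to Affymetrix rat expression arrays. The deposited table holds log2 expression values that the authors made with RMA, per the submitters' processing notes. RMA corrects background, equalises the arrays' distributions and sums probes by median polish, so a shift of most transcripts at once would not show. Its version is not given in the sources used here. The series' design text says that arrays showing batch effects were dropped by the submitters, and they are not analysed here. Scanner files were not used, so background calls could not be made. Of 31099 probe sets 57 were controls. Of the 31042 tested, 20826 have 1 gene symbol, 436 several and 9780 none. Symbols were updated through a RefSeq table of assembly GRCr8 (20758 matched by gene ID), and 14217 genes are named. The values ran from 1.80 to 14.85, and 0 pairs of arrays were identical.

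With limma 3.58.1 (lmFit and eBayes, R 4.3.3) 1 model per organ fitted the 7 dose groups of an organ together, and all 44 arrays for comparisons between organs. Two-sided p-values were adjusted over all tested probe sets (Benjamini-Hochberg), and a gene is called at adjusted p under 0.05. Every p not named a permutation p is from limma. Figures and permutations used Python 3.11.15, scipy 1.17.1 and matplotlib 3.10.9. The fit was tested on simulated data with known changes at 500 mg/kg. In liver 51% of changes of 0.5 log2 units and 96% of changes of 1 were called. In kidney these shares were 41% and 88%. The changed probe sets were drawn from all probe sets, and most of the cell cycle genes vary more than the median probe set. Arrays were grouped by title. A kidney array at 10 mg/kg without a replicate number took its number from accession order and does not enter the blocked fits. Same-numbered arrays of an organ deviated together little (median correlation of deviations 0.02 in liver and 0.06 in kidney). Pairs with other numbers had medians of -0.01 and -0.06. Of the same-numbered pairs, 14 of 78 in liver and 12 of 33 in kidney were above 0.1. The main fits do not use the numbers, and the blocked fits do. Whether same-numbered liver and kidney arrays come from 1 rat is not given in the sources used here (Xist is high in vehicle replicate 2 of both), and the fits between organs treat all arrays as independent.

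The cell cycle genes, the role groups and the lists were chosen with earlier results of these data known. Genes named with values are a set given whatever their values, genes called in any comparison, and in each comparison at 100, 300 or 500 mg/kg, or over all doses, the 3 each way with the smallest p under 0.05 unadjusted. Of the other pathway lists up to 3 genes each may be named, with Cdkn1a and Ccnd1 in any case. Alternatives were a filter on dim probe sets, a second quantile normalization, median centring, the mean of a gene's probe sets, a trended robust prior, fits of only the groups compared, the replicate number as a block, and each array left out.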

Additional observations from a re-analysis of the deposited data

Results flagged for a closer look

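A single array stood apart from the other 3 of its liver dose group, by Dixon's criterion at 0.829 of the group's range, in 11 of 186 groups of 4 arrays tested (5.91%). Chance flags about 1 in 20 groups. The mean of the 44 genes was 5.4926 in liver 100 mg/kg replicate 4, above 5.2854 to 5.3082 in the others. In the same array Mcm2 read 6.3623, above 5.821 to 5.9072. At 100 mg/kg Ttk was high at 3.6958 in replicate 3 (others 3.4309 to 3.4719) and Mad2l1 low at 5.0074 in replicate 2 (others 5.2226 to 5.2447). At 500 mg/kg Foxm1 was high at 5.5032 in replicate 2 (others 5.2987 to 5.3197), Pbk high at 5.4248 in replicate 1 (others 4.939 to 4.9924) and Pcna low at 8.7335 in replicate 4 (others 8.8042 to 8.8138). Mki67 was high at 5.1102 in 1 mg/kg replicate 1 (others 4.6511 to 4.6845), and Cks2 low at 7.4669 in 10 mg/kg replicate 3 (others 8.1378 to 8.1897). Aurkb was low at 3.8858 in 300 mg/kg replicate 1 (others 4.3552 to 4.4403), and Mcm7 low at 7.2331 in vehicle replicate 1 (others 7.5504 to 7.5996).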

How the results depend on the processing

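The count of genes called differed from the reported one by over 1.5 times in 3 of 202 settings that leave out 1 array and in 1 of 126 other settings. The median of the 44 genes moved by more than the SD of their mean within dose groups in 6 of 202 and 0 of 126, and changed sign in 31 and 10, most of these where it lay near 0. With 1 array left out, the kidney count ran from 0 to 2 (0.1 mg/kg) and from 0 to 8 (500 mg/kg), and that of the organ difference from 0 to 2 (500 mg/kg). The lowest and highest kidney medians were -0.54 and -0.18 (0.1 mg/kg), -0.37 and -0.012 (1 mg/kg), -0.20 and 0.12 (10 mg/kg), -0.21 and 0.079 (100 mg/kg), -0.34 and 0.022 (300 mg/kg), and -0.46 and -0.15 (500 mg/kg). The high end of the counts and the low end of these medians came without vehicle replicate 1. With only probe sets above the median level, 12 genes were called between the vehicle organs, where fewer genes were tested. With the mean of all probe sets of a gene, the vehicle organ difference of Kif23 turned to -0.20. The count between vehicle organs ran from 15 to 26 with 1 array left out. With the replicate block, 0 of 44 genes were called in each of the 16 comparisons within an organ. The median at 500 mg/kg stayed at -0.25 in kidney and -0.05 in liver, while the count of all probe sets called in liver was 60 at 300 mg/kg (38 without the block) and 50 for the slope (76 without). The number of arrays limits the precision, and dim probe sets have compressed differences.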
